A study of Mus musculus with 18 samples.

Results

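Mouse medulloblastomas of the subtype named GFD came from a pair of genetic models, one called Smo and one called Ptch, and the arrays of these models were compared gene by gene. The comparison took the 4 arrays titled GFD-Smo;GFAP-cre, called GFD-Smo from here on, against the 2 arrays titled GFD-Ptch. These were 6 of the 18 arrays of the series. All 19938 genes with a probe set of 1 gene symbol were compared, and a gene with several probe sets was represented by the one with the highest mean over all arrays. The other 12 arrays were 4 of NG-Smo;Atoh1-CreER (NG-Smo), 4 of NG-Ptch and 4 of GFI-Ptch, where 1 GFI-Ptch tumour had been grown in an NSG host mouse. The labels do not explain the subtype names NG, GFD and GFI.

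The labels give the tissue as medulloblastoma, a tumour of the cerebellum, and state neither ages nor the alleles of Smo and Ptch. The GFD-Smo tumours carried GFAP-cre, a Cre recombinase under a GFAP promoter, which is active in astrocytes and in neural stem cells of the developing brain. The GFD-Ptch labels name no Cre. The model and the Cre driver were thus the same split of the arrays and cannot be told apart, and mouse strain is not given. Nothing in the labels states that the replicates are different animals, so the p-values reflect the spread among these arrays alone, which may be technical. The number of arrays, 4 against 2, limits the precision.

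Both models act on the Hedgehog pathway. Ptch1, the receptor for Hedgehog ligands, holds back the membrane protein Smo, and active Smo signals through the transcription factors Gli1, Gli2 and Gli3. Granule neuron progenitors of the cerebellum divide in response to Sonic hedgehog, and tumours of this class resemble them. Ptch1, Hhip and Gli1 are themselves targets of the pathway, and Ptch1 and Hhip limit its activity.

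The tissue label was checked against the markers of granule neuron progenitors. Atoh1, the transcription factor that defines these cells, had levels (log2 intensity) of 11.83, 11.83, 11.80 and 12.14 in the GFD-Smo arrays and 12.28 and 12.33 in the GFD-Ptch arrays. The mean level of the 17 granule neuron progenitor markers was 11.06 to 11.12 in the GFD-Smo arrays and 11.29 to 11.33 in the GFD-Ptch arrays. The probe sets of Ptch1 and Smo check nothing about the genotype, since it is not known whether they lie in the altered part of either gene.

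The gender labels and the Y-linked transcripts did not match on 2 of the 4 GFD-Smo arrays. Replicate 2, labelled F, had Eif2s3y, a Y-linked gene, at a level of 10.31. Replicate 3, labelled M, had it at 5.02, close to the 5.03 and 5.04 of replicates 1 and 4. Both GFD-Ptch arrays, labelled M, had it at 9.98 and 10.12. The 4 GFD-Smo arrays correlated with each other at 0.995 to 0.998 over all genes, the GFD-Ptch arrays at 0.993, and arrays of different models at 0.971 to 0.977. Results are therefore also given for GFD-Smo replicate 2, the GFD-Smo array with Y-linked transcripts, set alone against GFD-Ptch.

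GFD-Smo tumours had higher levels of many glial genes and of a few Hedgehog feedback genes, and lower levels of MHC class II genes and of the cell cycle gene Ccnd2. Of the 19938 genes, 3110 (15.6%) had an adjusted p under 0.05 and are called different. Levels were higher in GFD-Smo for 1694 of them (8.5% of the genes tested) and lower for 1416 (7.1%). The larger differences were mostly increases: 449 called genes were at least 2-fold higher and 112 at least 2-fold lower, and 101 were at least 4-fold higher against 13 lower. The groups did not overlap for 3103 of the 3110 called genes, and for 57.1% of all genes. A lack of overlap, where given below for a called gene, therefore adds nothing to its call.

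The balance of directions depended on the scaling of the arrays. Increases made up 54.5% of the calls on the values as deposited and 20.4% after each array was centred on its median, when 1386 genes were called higher and 5423 lower. Of the 3110 called genes, 2789 were called in the same direction after that centring. The median difference over all genes was -0.06 (log2) as deposited and -0.15 after centring. The number of calls also rested on the 2 GFD-Ptch arrays: without GFD-Ptch replicate 1, 985 genes were called higher and 729 lower, and without replicate 2, 556 and 441. Without GFI-Ptch replicate 4, the tumour grown in an NSG host, which enters only the estimate of spread, the counts were 2192 and 2184. Without GFD-Smo replicates 2 and 3 in turn, 908 and 883 genes were called lower. With GFD-Smo replicate 2 as the only Smo array, 252 genes were called higher and 81 lower, in a fit where this lone array is assumed to vary like the other groups.

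The 12 largest increases were led by Gpr50, an orphan receptor related to the melatonin receptors. Its levels were 11.24, 11.18, 11.31 and 10.88 in the GFD-Smo arrays and 6.63 and 6.71 in the GFD-Ptch arrays, a difference of 4.49 ± 0.85 (log2, SE) or 22.4-fold, with an adjusted p of 0.00266. The GFD-Smo arrays were all far above the GFD-Ptch arrays. The astrocyte enzyme aldolase C (Aldoc) followed with a difference of 4.09. Scd1, the desaturase that makes monounsaturated fatty acids, had levels of 11.03, 10.97, 10.96 and 11.37 against 7.36 and 7.14, a difference of 3.83 ± 0.58 with an adjusted p of 0.000478. Car2, a carbonic anhydrase of oligodendrocytes and other cells, was at 10.71, 10.75, 10.79 and 10.70 against 7.13 and 7.16, a difference of 3.60 ± 0.44 with an adjusted p of 0.000117. For both genes the gap between the groups was many times the range within either.

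The other large increases included genes of cell surface signalling. Ednrb, an endothelin receptor, was at 11.34, 11.42, 11.55 and 11.41 in GFD-Smo and 7.85 and 7.82 in GFD-Ptch, a difference of 3.60 with an adjusted p of 0.000275. Plpp3, a phosphatase that degrades lysophosphatidic acid, differed by 3.65 with an adjusted p of 2.24e-05. Gria1, an AMPA-type glutamate receptor subunit, differed by 3.49 (adjusted p = 0.00418), and Gabrg1, a GABA-A receptor subunit, by 3.41 (adjusted p = 0.000107). The glial connexin Gjc3 differed by 3.68 with an adjusted p of 0.00155. Mtx2, a protein of the mitochondrial outer membrane, was the least even of these genes: its levels were 10.39, 10.32, 10.55 and 10.16 in GFD-Smo and 7.57 and 6.13 in GFD-Ptch, so its GFD-Ptch arrays lay far apart. Its difference of 3.51 had an adjusted p of 0.00902 and, without GFD-Ptch replicate 2, was 2.79 with an adjusted p of 0.158. Gria1 also lost its call without that array (adjusted p = 0.0673).

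The 12 largest decreases were of more varied kinds. Tecta, a matrix protein known from the inner ear, was at 6.995, 6.99, 7.18 and 6.98 in GFD-Smo and 10.31 and 10.77 in GFD-Ptch, a difference of -3.51 ± 0.59 with an adjusted p of 0.00113. Ifi203, an interferon-inducible gene of the p200 family, was at 6.96, 7.13, 7.03 and 6.96 against 10.31 and 9.98, a difference of -3.12 ± 0.35 with an adjusted p of 5.54e-05. Both genes had nearly equal levels in the 4 GFD-Smo arrays, below both GFD-Ptch arrays. Foxd1, a forkhead transcription factor, differed by -2.29, Minar1 by -2.51 and Cerkl, a gene related to ceramide kinase, by -1.98 with an adjusted p of 8.43e-06. The call of Foxd1 was lost without GFD-Ptch replicate 2 (adjusted p = 0.0517).

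A pair of ion channels and several secreted proteins were also among the decreases. Cacna1c, the pore subunit of an L-type calcium channel, was at 8.73, 9.03, 8.66 and 8.61 in GFD-Smo and 10.98 and 10.55 in GFD-Ptch, a difference of -2.01 with an adjusted p of 0.000307. Kcnk9, a leak potassium channel, was at 8.06, 8.62, 8.34 and 7.67 against 10.02 and 10.24, a difference of -1.96 with an adjusted p of 0.00229. All GFD-Smo arrays were below both GFD-Ptch arrays for these channels, which the choice of genes required. Calb2, the calcium-binding protein calretinin, differed by -2.07 (adjusted p = 0.0189), and its call was lost without GFD-Ptch replicate 1 (adjusted p = 0.104) or 2 (adjusted p = 0.0975). Lcn2, an iron-binding secreted protein of inflammation, differed by -2.63 (adjusted p = 0.0156), with adjusted p values of 0.0743 and 0.12 without those arrays. Wfdc17, a secreted protein of myeloid cells, differed by -2.21 (adjusted p = 0.00866), with 0.0867 without GFD-Ptch replicate 1. The water channel Aqp6 differed by -2.10 with an adjusted p of 0.0429, and its call was lost when any of the 6 GFD arrays was left out (adjusted p of 0.0644 to 0.171).

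With GFD-Smo replicate 2 as the only Smo array, 7 of these 24 genes were called. The sizes of the 24 differences were then 1.51 to 4.51 (log2), and their direction was fixed by the choice of genes without overlap.

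**Figure D1:**
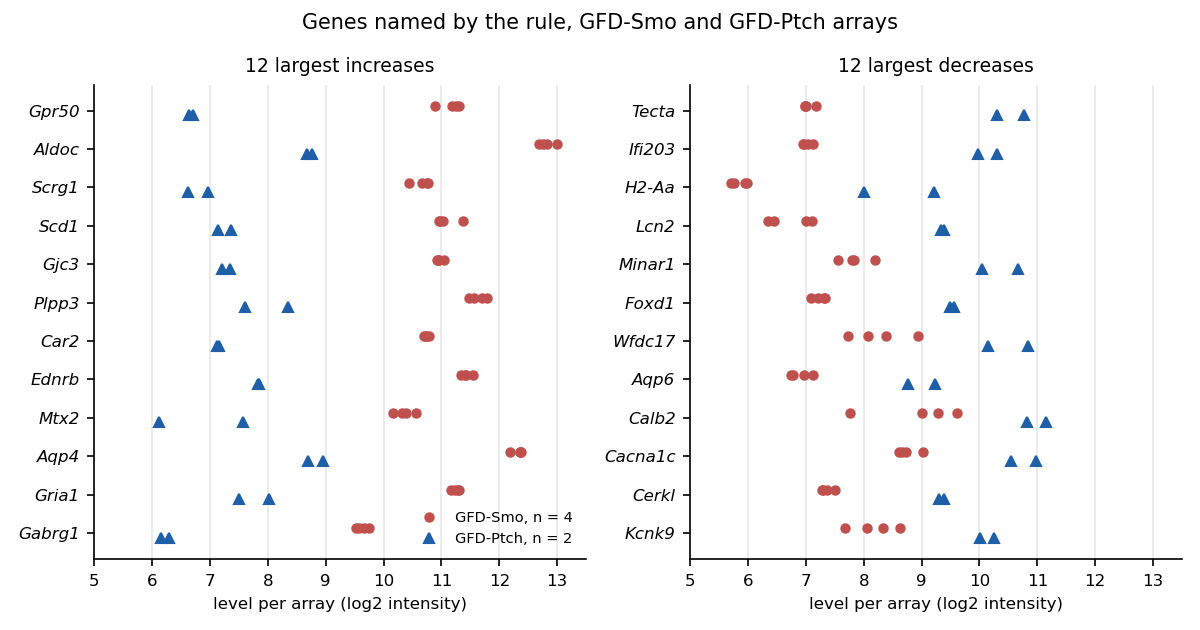
Levels (log2 intensity, x axis) of the 12 largest increases and 12 largest decreases in GFD-Smo, 1 point per array, with 4 GFD-Smo arrays as circles and 2 GFD-Ptch arrays as triangles. The groups do not overlap for any of the 24 genes, which the choice of genes required, and Mtx2 has the widest gap between its GFD-Ptch arrays, 7.57 and 6.13.

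Astrocyte markers stood higher in GFD-Smo as a group. Of the 18 measured, 16 were called higher and 0 lower, with a median difference of 2.34 (log2) beside -0.06 over all genes. Aqp4, the water channel of astrocyte endfeet, was at 12.36, 12.19, 12.35 and 12.37 in GFD-Smo and 8.95 and 8.70 in GFD-Ptch, a difference of 3.49 ± 0.42 with an adjusted p of 0.000107. Aldoc was at 12.99, 12.76, 12.83 and 12.68 against 8.77 and 8.68, which is 17-fold (adjusted p = 0.0036). Gja1, the connexin that couples astrocytes, was at 11.47, 11.29, 11.30 and 11.39 against 8.49 and 7.98, a difference of 3.13 with an adjusted p of 0.00018. In each case the 4 GFD-Smo arrays lay close together and well above GFD-Ptch.

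Aldh1l1, a folate enzyme used as an astrocyte marker, differed by 2.91 with an adjusted p of 0.000219. Gfap, the intermediate filament of astrocytes and the source of the promoter of GFAP-cre, differed less: its levels were 11.21, 10.65, 10.62 and 11.10 against 10.17 and 9.24, a difference of 1.19 ± 0.32 with an adjusted p of 0.0203. The groups did not overlap, but the GFD-Ptch arrays were far apart, and the call was lost without GFD-Ptch replicate 2 (difference 0.72, adjusted p = 0.34) or without GFD-Smo replicate 1 (adjusted p = 0.0501). The markers not called were Apoe, a lipid carrier, at 0.71 (adjusted p = 0.118), and Slc1a2, a glutamate transporter, at 0.11 (adjusted p = 0.711), both named after their values were seen. In bulk tumour tissue, fewer cells of a type and less RNA per cell cannot be told apart.

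The mean level of the astrocyte list placed GFD-Smo above, and GFD-Ptch at the low end of, the other tumours. It was 11.28 to 11.33 in GFD-Smo and 9.10 to 9.27 in GFD-Ptch, beside 9.94 to 10.27 in NG-Smo, 10.05 to 10.23 in NG-Ptch and 8.81 to 10.72 in GFI-Ptch. The gap between the GFD models thus had a part above the NG tumours and a part below them. Leaving out 1 GFD array gave 11 to 15 called astrocyte markers, and with GFD-Smo replicate 2 alone 6 were called.

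Markers of oligodendrocyte progenitors were the other glial list with many calls. Of 12 measured, 8 were called higher and 0 lower, with a median difference of 1.61. The mean of the list was 9.92 to 10.08 in GFD-Smo and 8.31 to 8.49 in GFD-Ptch. It was 9.24 to 10.35 in NG-Smo, 9.40 to 9.87 in NG-Ptch and 7.54 to 9.49 in GFI-Ptch. GFD-Smo thus lay within the range of NG-Smo, and GFD-Ptch lay below both NG groups. Scrg1 was at 10.75, 10.45, 10.77 and 10.66 in GFD-Smo and 6.97 and 6.62 in GFD-Ptch, a difference of 3.86 (adjusted p = 0.00033). Ptprz1, a receptor phosphatase of glial progenitors, was at 11.63, 11.88, 11.76 and 11.88 against 8.77 and 8.13, a difference of 3.34 (adjusted p = 0.00661). The members that define the lineage differed less: Olig2, its transcription factor, was at 10.10, 10.16, 10.01 and 10.46 against 10.01 and 9.81, a difference of 0.27 with an adjusted p of 0.511. Pdgfra, its growth factor receptor, named after its value was seen, differed by 0.0042 (adjusted p = 0.996).

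The count of oligodendrocyte progenitor calls rested on GFD-Ptch. It was 5 without GFD-Ptch replicate 1 and 3 without replicate 2, and it was 0 with GFD-Smo replicate 2 alone. Ptprz1 (adjusted p = 0.0953), Lhfpl3 (0.0879) and Cspg5 (0.11) lost their calls without GFD-Ptch replicate 2, and Lhfpl3 also without replicate 1 (0.0516). Among 12 genes of myelinating oligodendrocytes, 3 were called higher and 0 lower. The largest was Cnp, an enzyme of myelin, at 2.85 (adjusted p = 0.00162). Mbp, the myelin basic protein, differed by 0.71 (adjusted p = 0.312). Without either GFD-Ptch array, 1 myelin gene was called.

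Of 14 markers of neural stem cells and radial glia, 4 were called higher and 0 lower, with a median of 0.39. Sox2, a transcription factor of stem cells and glia, was at 9.90, 10.17, 9.95 and 10.40 in GFD-Smo and 7.58 and 7.72 in GFD-Ptch, a difference of 2.46 ± 0.53 with an adjusted p of 0.00619. Id4, an inhibitor of basic helix-loop-helix factors, differed by 1.92 (adjusted p = 9.37e-05). Fabp7, a fatty acid-binding protein of radial glia, was at 13.66, 13.77, 13.68 and 13.71 against 12.23 and 11.55, a difference of 1.82 (adjusted p = 0.00873). The GFD-Smo arrays were above GFD-Ptch for all of them, and 3103 of the 3110 called genes were likewise without overlap.

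Tnc, a matrix protein of the stem cell niche, differed by 2.31 (adjusted p = 0.0119). Nes, which encodes the stem cell filament nestin and was named after its value was seen, differed by 0.27 (adjusted p = 0.702). Without GFD-Ptch replicate 2 the count of stem cell calls was 1, since Sox2 (adjusted p = 0.0565), Tnc (0.195) and Fabp7 (0.148) were lost. Sox2 was also lost without GFD-Ptch replicate 1 (0.0509). After median centring 1 member was called lower, as it was without NG-Ptch replicate 2 or 5, NG-Smo replicate 4 or GFI-Ptch replicate 4. Sox2, Id4, Tnc and Fabp7 are expressed by astrocytes too, and the part of the astrocyte list, 11.28 to 11.33 against 9.10 to 9.27, in their differences was not tested.

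**Figure D2:**
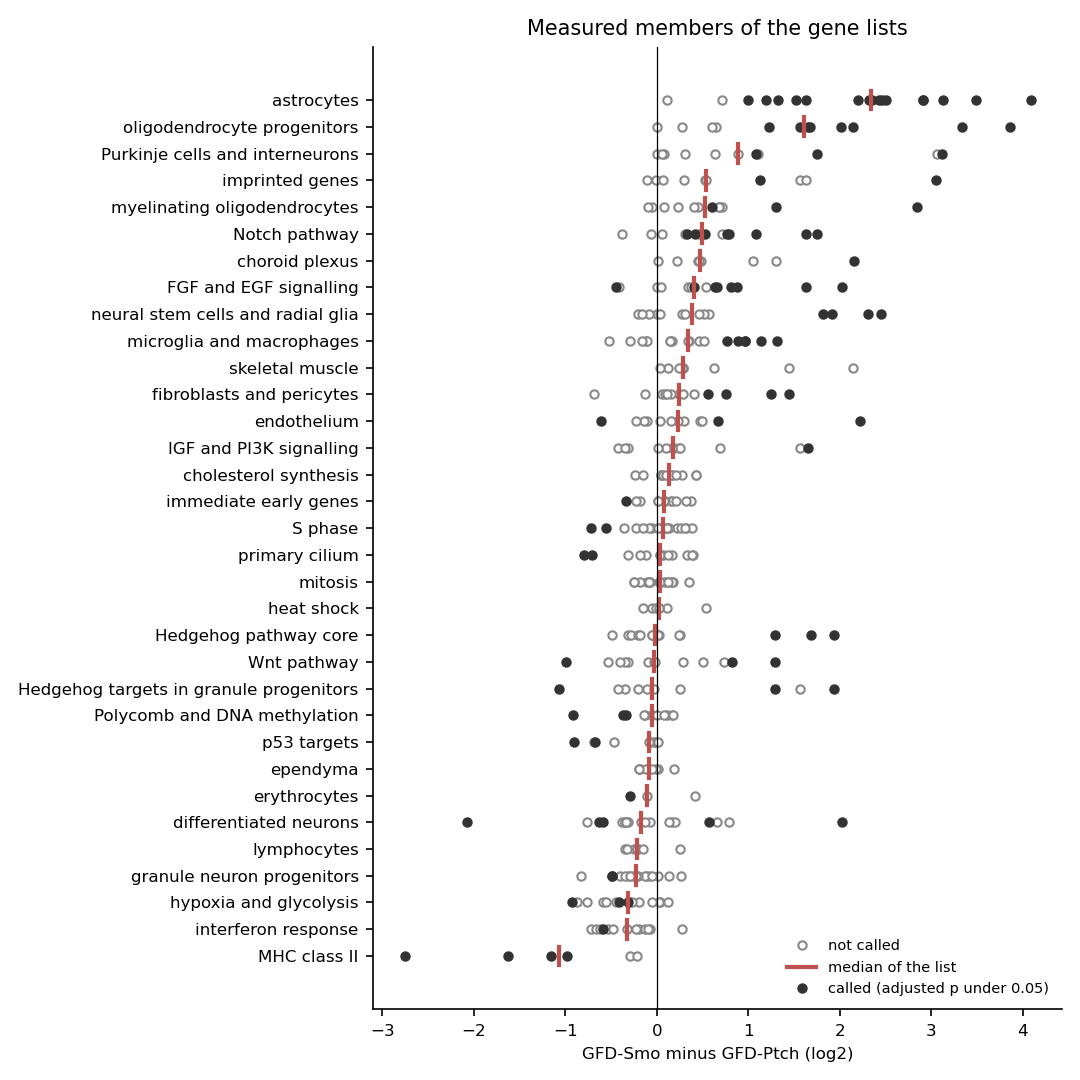
Difference GFD-Smo minus GFD-Ptch (log2, x axis) of each measured member of 33 of the 34 gene lists, the Y-linked list left out. Filled points are called at an adjusted p under 0.05, open points are not, and the red bar is the median of the list. Astrocytes have the highest median, 2.34, and MHC class II the lowest, -1.07.

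The core of the Hedgehog pathway did not move as a block. Of 14 measured members, 3 were called higher, 0 lower, and the median was -0.02. Those called were the receptor Ptch1, the ligand-binding inhibitor Hhip and the effector Gli3. Ptch1 was at 12.61, 12.73, 12.62 and 12.88 in GFD-Smo and 11.56 and 11.26 in GFD-Ptch, a difference of 1.30 ± 0.28 or 2.46-fold (adjusted p = 0.00549). Hhip was at 10.80, 10.91, 10.78 and 11.03 against 9.16 and 8.74, a difference of 1.93 ± 0.34 or 3.82-fold (adjusted p = 0.00146). Gli3, which acts mainly as a repressor, was at 8.54, 8.49, 8.60 and 8.66 against 6.91 and 6.85, a difference of 1.69 ± 0.28 (adjusted p = 0.00113). All GFD-Smo arrays were above both GFD-Ptch arrays for the 3 genes, and 3103 of the 3110 called genes were likewise without overlap.

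The transducer and the activating effectors did not pass the test. Smo was at 11.24, 11.41, 11.20 and 11.40 in GFD-Smo and 11.67 and 11.59 in GFD-Ptch, a difference of -0.31 with an adjusted p of 0.165. Gli1 differed by 0.25 (adjusted p = 0.325) and Gli2 by -0.49 (adjusted p = 0.0616). Smo and Gli2 were lower in each GFD-Smo array than in both GFD-Ptch arrays, as were 6725 of all 19938 genes. After median centring 3 core members were called lower beside the 3 higher ones, and after quantile normalization 1.

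Of the targets measured in granule progenitors, 2 of 11 were called higher (Ptch1 and Hhip) and 1 lower. The lower one was Ccnd2, the D-type cyclin of these progenitors, at 12.17, 12.34, 12.13 and 12.22 in GFD-Smo and 13.39 and 13.18 in GFD-Ptch, a difference of -1.07 ± 0.14 (adjusted p = 0.000183). Ccnd1, the other cyclin, differed by -0.11 (adjusted p = 0.586). Mycn, a driver of progenitor division, was at 11.42, 11.37, 11.52 and 11.58 against 11.63 and 11.43, so its groups overlapped, with a difference of -0.05 (adjusted p = 0.817). The growth factor Igf2 differed by 1.56 with an adjusted p of 0.179, and its groups did not overlap, as for 57.1% of all genes. Ptch1 lost its call without GFD-Ptch replicate 2 (difference 1.15, adjusted p = 0.0907), which left 2 core members and 1 target called higher. With GFD-Smo replicate 2 alone none of the 14 core members was called (0 in limma).

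**Figure D3:**
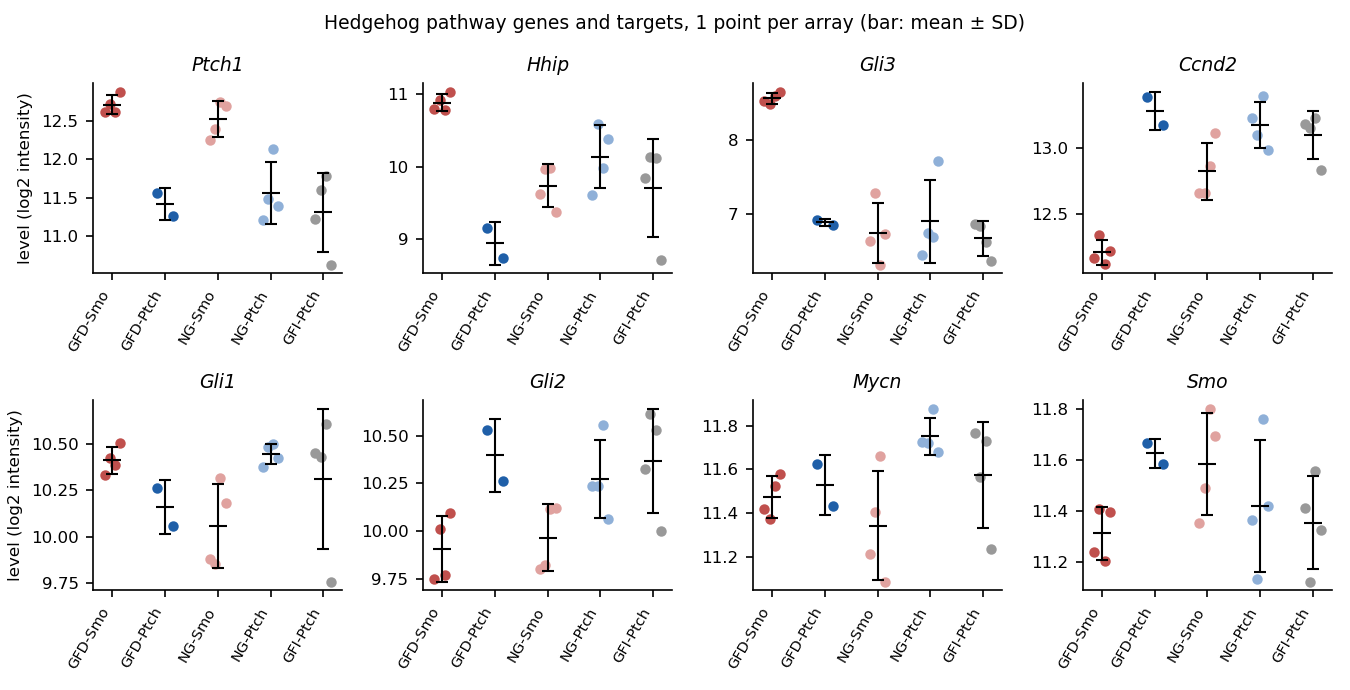
Levels (log2 intensity, y axis) of 8 Hedgehog pathway genes and targets, 1 point per array, with the mean and SD of each of the 5 groups. Hhip and Gli3 in GFD-Smo lie above all other groups, and the level of Ptch1 in GFD-Smo is near that in NG-Smo (means 12.71 and 12.53). The level of Ccnd2 is lowest in GFD-Smo.

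In the Notch pathway, by which neighbouring cells keep each other undifferentiated, 8 of 14 measured genes were called higher and 0 lower, with a median of 0.49. The ligand Jag1 was at 9.76, 9.85, 9.85 and 10.09 in GFD-Smo and 8.45 and 7.81 in GFD-Ptch, a difference of 1.76 ± 0.27 (adjusted p = 0.000563). Nrarp, a feedback target of the pathway, was at 9.14, 9.24, 9.25 and 9.09 against 7.52 and 7.57, a difference of 1.64 ± 0.21 (adjusted p = 0.000172). The groups were apart for both genes, as for 3103 of the 3110 called genes. The receptor Notch1 differed by 0.79 (adjusted p = 0.0271) and the effector Hey2 by 1.08 (adjusted p = 0.0258).

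The smaller Notch differences rested on single arrays. It took both GFD-Ptch arrays to reach 8 calls: 4 were found when replicate 1 was left out and 3 when replicate 2 was. Without GFD-Smo replicate 2 or 4 there were 4, and without GFD-Smo replicate 3 there were 5. Notch1 lost its call without any of those 5 arrays (adjusted p of 0.0516 to 0.202), and Hey2 without either GFD-Ptch array or GFD-Smo replicate 3 (0.0588 to 0.247). Jag1 and Nrarp were called whichever single array was left out.

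Of 15 genes of FGF and EGF signalling, 7 were called higher and 1 lower, with a median of 0.41. The receptors Fgfr2 and Fgfr3 led: Fgfr2 was at 9.33, 9.77, 9.35 and 9.71 in GFD-Smo and 7.79 and 7.26 in GFD-Ptch, a difference of 2.02 (adjusted p = 0.00179). Fgfr3, which marks astrocytes and is counted in that list too, differed by 1.63 (adjusted p = 0.000359). The pathway's transcription factor Etv4 (0.87, adjusted p = 0.00101) and its feedback inhibitor Spry2 (0.81, adjusted p = 0.00173) were higher as well. The other receptors did not pass: Fgfr1 differed by 0.34 (adjusted p = 0.0947), and Egfr by 0.01 (adjusted p = 0.987). The gene called lower, the ligand Nrg1, differed by -0.44 (adjusted p = 0.0162) and was named after its value was seen, and without either GFD-Ptch array no gene of the list was called lower.

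Single genes of other signalling lists were called. Counts in these and the following lists stand beside 8.5% of all genes called higher and 7.1% called lower. The IGF and PI3K count was near these shares. Of 13 Wnt pathway genes 2 were called higher and 1 lower. Wnt5a, a ligand of the noncanonical branch, was at 8.17, 8.44, 8.04 and 8.62 in GFD-Smo and 7.10 and 6.95 in GFD-Ptch, a difference of 1.29 (adjusted p = 0.00105). The receptor Fzd7 differed by -0.99 (adjusted p = 0.00866), with 0.116 without GFD-Ptch replicate 1. Dkk3 differed by 0.82 (adjusted p = 0.0491), a call lost without any 1 of the 6 GFD arrays (0.0724 to 0.228). Without NG-Ptch replicate 1, 2, 4 or 5 or NG-Smo replicate 1 or 3, 1 Wnt gene was called higher, and without NG-Smo replicate 2, 4 were. Without NG-Smo replicate 4 there were 3 higher and 2 lower, and without GFI-Ptch replicate 4, 3 and 3. Of 12 IGF and PI3K genes 1 was called, the binding protein Igfbp2, at 1.65 (adjusted p = 0.00155), and 2 were without GFD-Ptch replicate 1 or GFI-Ptch replicate 1 or 4. Of 10 imprinted genes 2 were called higher, led by Grb10, an adaptor that restrains insulin and IGF receptors, at 10.49, 10.10, 10.26 and 9.70 against 6.95 and 7.21, a difference of 3.06 ± 0.45 (adjusted p = 0.000402). The noncoding RNA Meg3, at 1.12 (adjusted p = 0.0368), lost its call without either GFD-Ptch array and without GFD-Smo replicates 1, 2 or 3 (0.0555 to 0.208).

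The granule progenitor programme held few calls, though most of its genes were slightly lower in GFD-Smo. Of its 17 measured markers, 0 were called higher and 2 lower, with a median of -0.22. They were Nhlh1 (-0.49, adjusted p = 0.00131) and Neurod1 (-0.49, adjusted p = 0.019), transcription factors of progenitors that begin to differentiate. Atoh1 differed by -0.41 with an adjusted p of 0.244, and its GFD-Smo arrays were all below GFD-Ptch, as for 6725 of all 19938 genes. This held for 11 of the 17 markers. The difference was below 0 for 14 of the 17, beside 12131 of all genes. The mean of the list was 11.06 to 11.12 in GFD-Smo and 11.29 to 11.33 in GFD-Ptch, beside 10.96 to 11.11 in NG-Smo and 11.23 to 11.30 in NG-Ptch. The call of Neurod1 was lost without either GFD-Ptch array (0.108 and 0.0927), which left 1 call.

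Genes of cell division were nearly level between the models. None of 16 mitosis genes was called (0 in limma, among which the largest difference was 0.35, of Cenpe, adjusted p = 0.251). Of 18 S phase genes 2 were called lower: Mcm2, a subunit of the replicative helicase, at 11.42, 11.44, 11.57 and 11.43 against 12.35 and 12.03, a difference of -0.72 (adjusted p = 0.000719), and Cdt1, which loads it, at -0.55 (adjusted p = 0.0104). Without GFD-Ptch replicate 1 Cdt1 was not called (0.103), which left 1. Of 11 Polycomb and DNA methylation genes 3 were called lower: the demethylase Tet3 by -0.91 (adjusted p = 0.000862), the histone methyltransferase Ezh2 by -0.37 (0.0129) and the DNA methyltransferase Dnmt1 by -0.34 (0.0242). Without GFD-Ptch replicate 2, 1 of these, Tet3, was called.

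Of 19 markers of differentiated neurons, 2 were called higher and 3 lower. Nefl, the light neurofilament, was at 8.73, 9.72, 9.53 and 7.76 in GFD-Smo and 6.97 and 6.86 in GFD-Ptch, a difference of 2.02 (adjusted p = 0.0335). Calb2 was lower, as given above. Nefl lost its call without either GFD-Ptch array (adjusted p of 0.109 and 0.201) and without GFD-Smo replicate 1, 2 or 3 (0.0516 to 0.081). Without either GFD-Ptch array no neuronal marker was called higher and 1 was called lower. None was called higher without GFD-Smo replicate 2 or 3, and 1 without replicate 1.

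Purkinje cell and interneuron genes split the GFD-Smo arrays. Of 11 measured, 3 were called higher. Car8, a carbonic anhydrase-like protein of Purkinje cells, was at 10.85, 10.50, 10.92 and 8.77 in GFD-Smo and 7.17 and 7.12 in GFD-Ptch, a difference of 3.11 (adjusted p = 0.0036). Calb1, the calcium-binding protein calbindin, was at 10.61, 10.04, 10.51 and 6.48 against 6.54 and 6.15, a difference of 3.06 with an adjusted p of 0.075. GFD-Smo replicate 4 thus lay beside GFD-Ptch for Calb1 and between the groups for Car8. The mean of the list was 7.38 in that array, 8.73 to 9.10 in the other GFD-Smo arrays and 7.44 in both GFD-Ptch arrays. Without GFD-Smo replicate 4, 6 of the 11 were called higher, and without any other 1 of the GFD arrays, 1. It was also 1 without any 1 of the NG-Ptch arrays, GFI-Ptch replicate 2 or 3 or NG-Smo replicate 3.

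Genes of MHC class II, by which antigen-presenting cells show peptides to helper T cells, were lower in GFD-Smo. Of 6 measured, 4 were called lower and 0 higher, with a median of -1.07. H2-Aa, the alpha chain, was at 5.95, 5.75, 5.70 and 5.99 in GFD-Smo and 9.22 and 7.998 in GFD-Ptch, a difference of -2.76 ± 0.50 (adjusted p = 0.00181). Cd74, the invariant chain, was at 7.05, 6.77, 6.72 and 6.84 against 8.93 and 8.02, a difference of -1.63 ± 0.51 (adjusted p = 0.043). The GFD-Smo arrays lay close together for these genes, while the GFD-Ptch arrays lay far apart. H2-Ab1 differed by -1.16 (adjusted p = 0.0453) and H2-Eb1 by -0.98 (adjusted p = 0.0438). Ciita, the master regulator of class II genes, differed by -0.21 (adjusted p = 0.185), with levels of 6.85 to 6.99 against 7.13 and 7.15, and was named after its values were seen.

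The call of H2-Aa held without any 1 array, and those of the other 3 genes were close to the threshold. Without any 1 of the 6 GFD arrays 1 class II gene was called, H2-Aa, and adjusted p values of the others were 0.0592 to 0.295. The same count of 1 was found without any 1 of the NG-Ptch arrays or without NG-Smo replicate 3, and it was 2 without GFI-Ptch replicate 3. With GFD-Smo replicate 2 alone it was 0. The mean of the list was 6.73 to 6.94 in GFD-Smo and 7.69 to 8.34 in GFD-Ptch, beside 7.52 to 8.76 in NG-Smo, 7.90 to 8.14 in NG-Ptch and 7.78 to 8.85 in GFI-Ptch, so the GFD-Smo arrays were the lowest of all 18.

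The 150 bases before the start of H2-Aa and H2-Eb1 are shown because both hold the core of the Y box, a conserved element of class II promoters, spelled CTGATTGG. The sequences are RefSeq's for GRCm38.p6, at chr17:34287824-34287973 on the minus strand for H2-Aa and chr17:34305717-34305866 on the plus strand for H2-Eb1, and the capitals mark the match, whose first base is 51 and 62 bases before the start.
H2-Aa: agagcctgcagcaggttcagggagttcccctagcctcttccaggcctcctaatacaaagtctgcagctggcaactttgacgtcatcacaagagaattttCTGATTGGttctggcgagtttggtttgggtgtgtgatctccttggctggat
H2-Eb1: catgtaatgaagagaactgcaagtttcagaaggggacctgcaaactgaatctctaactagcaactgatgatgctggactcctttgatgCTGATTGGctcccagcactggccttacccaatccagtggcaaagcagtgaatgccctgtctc
Searched on both strands, CTGATTGG was found in 1346 of 32851 promoter windows of 300 bases (4.1%), and in 2 of the 4 listed class II genes that had a window. A match is a description of the sequence and not a measured binding site.

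Microglia and macrophage markers went the other way from class II. Of 18 measured, 6 were called higher and 0 lower, with a median of 0.34. The mean of the list was 9.305 to 9.49 in GFD-Smo and 8.82 to 9.17 in GFD-Ptch. It was 9.69 to 9.86 in NG-Smo, 9.20 to 9.66 in NG-Ptch and 8.996 to 9.71 in GFI-Ptch, so GFD-Smo lay below NG-Smo. Csf1r, the receptor on which these cells depend, was at 10.20, 10.20, 10.06 and 10.06 in GFD-Smo and 9.09 and 8.55 in GFD-Ptch, a difference of 1.31 ± 0.26 (adjusted p = 0.00359). P2ry12, a receptor of resting microglia, was at 8.02, 8.04, 8.20 and 7.95 against 6.87 and 6.95, a difference of 1.14 (adjusted p = 0.00188). The groups were apart for both, as for 3103 of the 3110 called genes. Cx3cr1, a chemokine receptor of microglia, differed by 0.97 (adjusted p = 0.00912), and Tyrobp, an adaptor of their activating receptors, by 0.96 (adjusted p = 0.0073).

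Without GFD-Ptch replicate 2, 1 microglial marker, P2ry12, was called, and Csf1r (adjusted p = 0.0908), Cx3cr1 (0.12) and Tyrobp (0.162) were not. With GFD-Smo replicate 2 alone 0 were called. None of 8 lymphocyte genes was called (0 in limma), and 5 of the 8 were dim in all 6 GFD arrays, below the lower quartile of all values, 6.61. Without GFI-Ptch replicate 4, 3 lymphocyte genes were called lower, without NG-Smo replicate 4, 2, and after median centring 6. The mean level of the lymphocyte list was 6.33 to 6.46 in GFD-Smo and 6.55 to 6.61 in GFD-Ptch. Of 13 interferon response genes 1 was called lower, Stat2, a transcription factor of the response (-0.59, adjusted p = 0.00128), and 2 were when NG-Ptch replicate 2 or GFI-Ptch replicate 4 was left out. That count of 1 is near the 7.1% called lower over all genes.

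**Figure D4:**
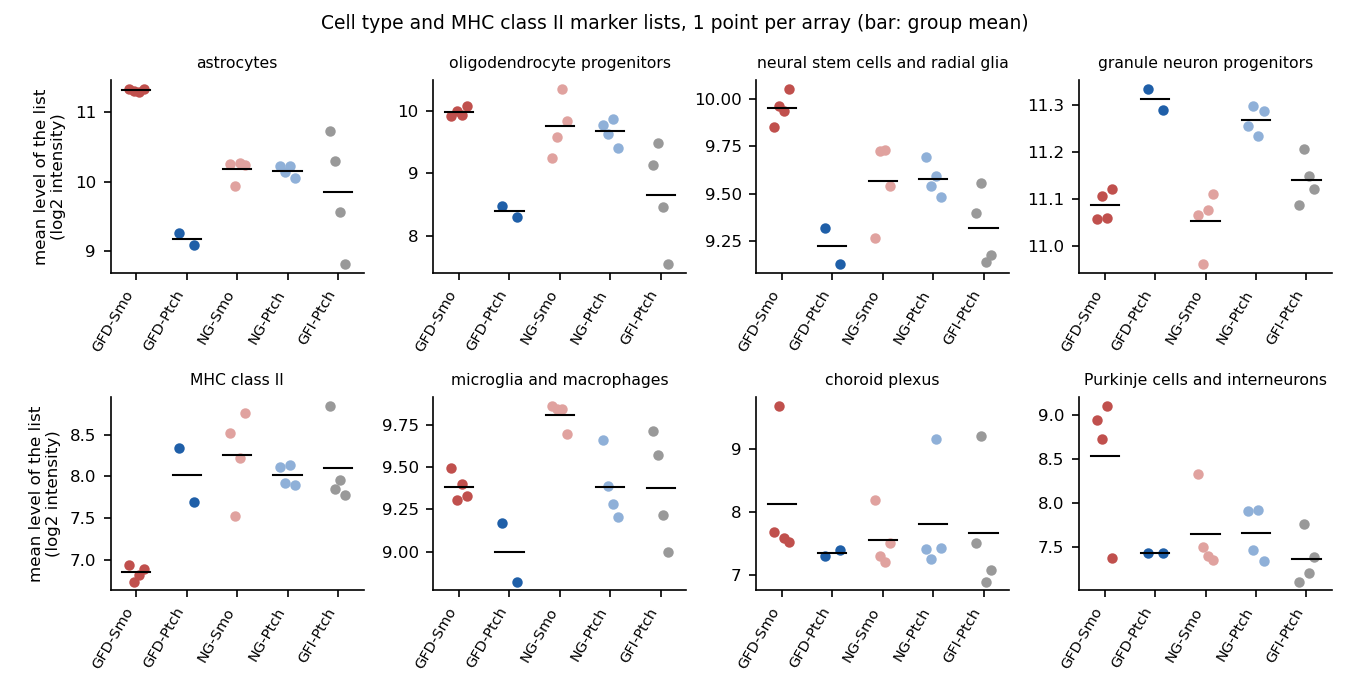
Mean level (log2 intensity, y axis) of the measured genes of 7 cell type lists and of MHC class II, 1 point per array, with the group mean as a bar, in the 5 groups. The astrocyte list is highest in the 4 GFD-Smo arrays and the MHC class II list lowest, while GFD-Smo replicate 2 stands apart for the choroid plexus (9.68) and replicate 4 for the Purkinje cells (7.38).

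Vessel and connective tissue genes showed single large differences. Of 13 endothelial genes 2 were called higher and 1 lower. Slco1c1, a thyroid hormone transporter of brain vessels and astrocytes, was at 10.24, 10.38, 10.44 and 10.03 in GFD-Smo and 7.996 and 8.10 in GFD-Ptch, a difference of 2.22 (adjusted p = 0.000879). The other calls, Kdr (0.67, adjusted p = 0.0358) and Vwf (-0.61, adjusted p = 0.0411), were lost without either GFD-Ptch array, without GFD-Smo replicates 1, 2 or 3 and, for Vwf, also without replicate 4 (adjusted p of 0.0568 to 0.32). Vwf also lost its call without NG-Ptch replicates 2 or 5 or GFI-Ptch replicate 2.

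Of 13 fibroblast and pericyte genes 4 were called higher, led by the matrix protein Postn, at 8.32, 8.46, 8.503 and 8.18 against 6.999 and 6.83, a difference of 1.45 (adjusted p = 0.000435), and by Vtn (1.25, adjusted p = 0.00695). Without either GFD-Ptch array 1 of them was called, and without GFD-Smo replicate 1 or 2 or NG-Ptch replicate 2, 2. Vtn was lost without GFD-Ptch replicate 1 (0.0504) or 2 (0.0681). No member of the ependymal or skeletal muscle list was called (0 in limma), and without GFI-Ptch replicate 4, 4 muscle genes were called higher. The largest muscle difference was that of Actc1, at 2.15 (adjusted p = 0.123), with levels of 10.23 to 10.84 against 8.32 and 8.52.

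The choroid plexus list separated 1 array. Ttr, the transthyretin gene that marks the plexus, was at 12.70 in GFD-Smo replicate 2, 6.48 to 6.56 in the other GFD-Smo arrays and 6.72 and 6.78 in GFD-Ptch, and its difference of 1.30 had an adjusted p of 0.685. The 1 gene of 8 called was Clic6, a chloride channel-like protein, at 9.05, 9.76, 9.18 and 9.40 against 7.16 and 7.22, a difference of 2.16 (adjusted p = 0.00172). Clic6 was high in all 4 GFD-Smo arrays, also in the 3 whose Ttr was at 6.48 to 6.56.

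Genes of hypoxia and glycolysis tended lower, with 3 of 15 called lower, 0 higher and a median of -0.31. Bnip3, a mitophagy receptor induced by low oxygen, was at 9.71, 9.56, 9.74 and 9.19 in GFD-Smo and 10.17 and 10.79 in GFD-Ptch, a difference of -0.93 (adjusted p = 0.0466), and the call was lost without any 1 of the GFD arrays (0.0548 to 0.431). Vegfa, the vessel growth factor, differed by -0.77 (adjusted p = 0.0801). The count was 1 without GFD-Ptch replicate 2, 7 without GFI-Ptch replicate 4 and 8 after median centring. Of 9 p53 targets 2 were called lower, led by the stress protein Sesn2 at -0.90 (adjusted p = 0.0118). Sesn2 lost its call without GFD-Ptch replicate 2 (adjusted p = 0.132) and Zmat3 without replicate 1 (0.186), which left 1 in each case. Of 13 primary cilium genes, on which Hedgehog signalling depends, 2 were called lower: Tulp3 (-0.80, adjusted p = 0.012) and Ift122 (-0.71, adjusted p = 0.0208), both of which act in trafficking into the cilium. Neither was called without GFD-Ptch replicate 1 (adjusted p of 0.133 and 0.249).

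The remaining lists held few calls, beside 8.5% of all genes called higher and 7.1% called lower. None of 12 cholesterol synthesis genes and none of 7 heat shock genes was called (0 in limma), although 1 heat shock gene was called without NG-Smo replicate 1. Of 12 immediate early genes 1 was called lower, Arc (-0.34, adjusted p = 0.0111), and 0 without either GFD-Ptch array. Of 3 erythrocyte genes Epb42, which is dim in all GFD arrays, was called lower (-0.30, adjusted p = 0.0286), and it was lost without GFD-Ptch replicate 2 or GFD-Smo replicates 2, 3 or 4 (0.0522 to 0.343). Of 7 Y-linked genes 1 was called lower, Uba1y, at 6.56, 6.39, 6.51 and 6.40 against 11.01 and 7.57, a difference of -2.83 (adjusted p = 0.00517), which was -1.11 without GFD-Ptch replicate 1 (adjusted p = 0.0596).

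The same comparison of models was made in the NG tumours, where NG-Smo carried Atoh1-CreER and not GFAP-cre. A gap between the comparisons thus mixes subtype with Cre driver, which cannot be told apart. Y-linked transcripts differed as well: the mean of the Y-linked list was 7.58 to 8.07 in GFD-Ptch and 5.48 to 5.53 in NG-Ptch. NG-Smo minus NG-Ptch shares no array with the GFD comparison, although both use the same estimate of spread. In it 208 genes were called (1.04%), 121 higher and 87 lower. Leaving out 1 array gave 75 to 127 calls for NG-Ptch replicates 2, 4 and 5, NG-Smo replicates 2 and 3 and each GFD-Smo array, and 384 for NG-Smo replicate 4 or GFI-Ptch replicate 4. Of these 208, 89 were also called in the GFD comparison, 84 in the same direction and 5 in opposite directions, which is 42.8% of the NG calls and 2.86% of the GFD calls. Across all genes the differences correlated at 0.27, a value over genes, which are not independent replicates.

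The difference between the comparisons, tested itself, was called for 759 genes (3.81%), 479 with the GFD value above the NG value and 280 below. It was called for 248 to 503 genes without NG-Ptch replicate 1, 2 or 5, either GFD-Ptch array or GFD-Smo replicate 1, 2 or 3, and for 1285 without GFI-Ptch replicate 4. With the Y-linked level as a covariate the count was 159. Of the 3110 genes called in the GFD tumours, 697 (22.4%) were called for this difference. In the astrocyte list 13 of 18 genes were: Aqp4 differed by 3.49 in GFD and -0.22 in NG tumours, a gap of 3.72 (adjusted p = 0.00213), and Gfap by 1.19 and -0.69 (adjusted p = 0.0197). Hhip differed by 1.93 and -0.40 (gap 2.33, adjusted p = 0.00907) and Gli3 by 1.69 and -0.16 (adjusted p = 0.0124). H2-Aa differed by -2.76 and 0.56 (adjusted p = 0.0108). The sign of the NG difference was opposite to that of the GFD difference for Aqp4, Gfap, Hhip, Gli3 and H2-Aa. The NG differences of Gfap and H2-Aa were not called (adjusted p of 0.296 and 0.761).

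For other genes the NG tumours differed in the same direction. Ifi203 differed by -3.12 in GFD and -2.56 in NG tumours (adjusted p = 0.000572), with a gap between them of -0.56 (adjusted p = 0.482). Tecta (NG difference -2.25, adjusted p = 0.0382) and Foxd1 (-1.89, adjusted p = 0.0296) were lower in NG-Smo as well. Ptch1 differed by 0.97 in NG tumours (adjusted p = 0.0544), and its gap of 0.33 had an adjusted p of 0.604. Cx3cr1 was higher by 0.91 in NG-Smo (adjusted p = 0.0278). A gap that misses the threshold does not show that the differences were equal.

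Some of the largest gaps came from genes that were uneven among the NG groups. Prm1, a sperm nuclear protein, had a GFD difference of 0.54 (adjusted p = 0.454) and an NG difference of -3.24, a gap of 3.78 (adjusted p = 0.00588), with a mean of 7.42 in NG-Smo and of 10.66 to 11.68 in the other groups. Mtx2 had an NG difference of -1.38 and a gap of 4.89 (adjusted p = 0.0174).

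The position of both GFD groups among all 18 arrays was counted for the called genes. Of the 449 genes at least 2-fold higher, GFD-Smo lay above each of the 14 other arrays for 245 (54.6%), and GFD-Ptch lay below each of the 16 others for 66 (14.7%), with 25 in both counts. Of the 112 genes at least 2-fold lower, GFD-Smo lay below all others for 52 (46.4%) and GFD-Ptch above all others for 25 (22.3%). The counts depend on group size, since 4 arrays had to pass in one case and 2 in the other. Choosing genes by a gap between these groups also favours such positions, and the share over all genes was not counted. The counts are therefore a description only.

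**Figure D5:**
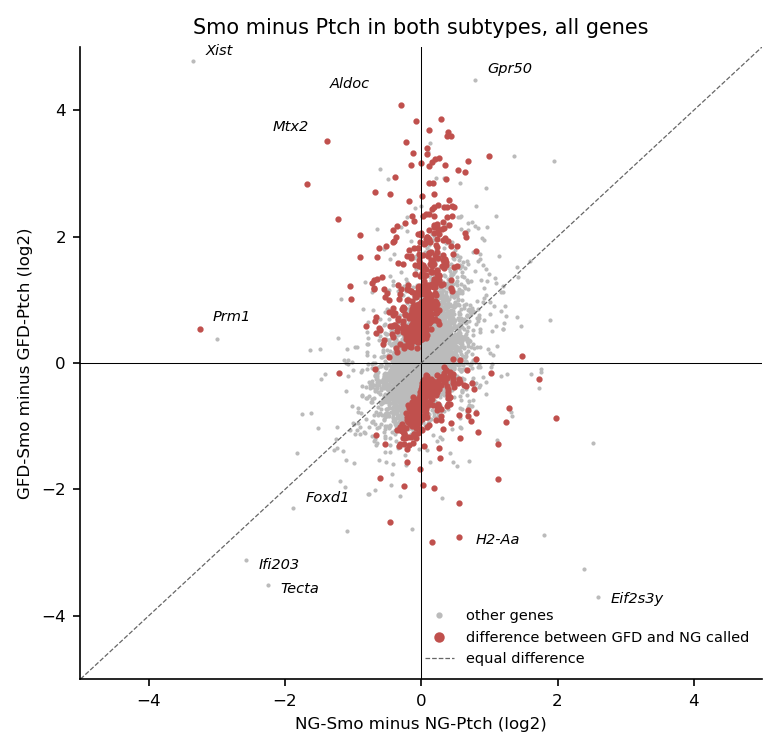
Smo minus Ptch (log2) in NG tumours (x axis) and GFD tumours (y axis), 1 point per gene, with the 759 genes called for the difference between the comparisons in red and the line of equal differences dashed. Aldoc lies high on the y axis and near 0 on the x axis, while Ifi203, Tecta and Foxd1 are low on both axes. The outer grey points at the corners include the sex-linked genes Xist and Eif2s3y.

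Among RNA-binding proteins, Igf2bp3 had the smallest p of all genes and was named for that after its values were seen. It stabilises messenger RNAs in the embryo. Its levels were 7.96, 8.25, 8.27 and 8.40 in GFD-Smo and 6.40 and 6.41 in GFD-Ptch, a difference of 1.82 ± 0.09 (adjusted p = 1.48e-08), and the means of the other groups were 6.31 to 6.38. Its relative Igf2bp1 was at 8.05, 8.08, 8.38 and 8.06 against 6.87 and 6.97, a difference of 1.23 (adjusted p = 1.63e-05). Both were also called for the gap to the NG tumours, which was 1.86 (adjusted p = 4.56e-07) for Igf2bp3 and 1.21 (adjusted p = 0.000644) for Igf2bp1.

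MicroRNAs of the let-7 family target these messenger RNAs, and the arrays also held probe sets for miRNA genes, which measure the precursor transcript and not the mature form. Of 300 miRNA genes 7 were called higher and 18 lower, with a median of -0.12. Over all genes 8.5% were called higher and 7.1% lower, so neither miRNA count exceeds its share. The only differences of at least 1 (log2) among those called were of Mir18 and Mir19a, neighbours in the miR-17-92 cluster. The mature sequences are shown for the cluster members measured and for the let-7 genes called, from RefSeq (GRCm38.p6), 5′ to 3′, with the seed, bases 2 to 8, in capitals.
miR-17-5p: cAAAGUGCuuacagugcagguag
miR-18a-5p: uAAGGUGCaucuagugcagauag
miR-19a-3p: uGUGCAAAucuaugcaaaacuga
miR-20a-5p: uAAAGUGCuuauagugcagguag
miR-19b-3p: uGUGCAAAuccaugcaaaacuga
let-7e-5p: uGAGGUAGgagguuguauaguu
let-7i-5p: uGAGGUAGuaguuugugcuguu
miR-17 and miR-20a share a seed, as do miR-19a and miR-19b, and miR-18a has its own.

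Mir18 was at 9.53, 8.52, 9.13 and 9.68 in GFD-Smo and 7.26 and 7.71 in GFD-Ptch, a difference of 1.73 (adjusted p = 0.018). Mir19a was at 8.05, 7.09, 7.82 and 8.46 against 5.79 and 6.31, a difference of 1.80 (adjusted p = 0.0358), and the host transcript Mir17hg differed by 0.62 (adjusted p = 0.0136). The groups were apart for these genes, as for 3103 of the 3110 called genes, with GFD-Smo replicate 2 the lowest of its group. The other hairpins of the cluster were not called: Mir17 differed by -0.27 (adjusted p = 0.258), Mir20a by 0.13 (0.533) and Mir19b-1 by 0.11 (0.817). Of 9 let-7 genes 2 were called lower, Mirlet7e (-0.44, adjusted p = 0.0078) and Mirlet7i (-0.35, adjusted p = 0.0483). The others were not called and went both ways. Mirlet7f-1 (0.59, adjusted p = 0.27), Mirlet7d (0.21), Mirlet7c-1 (0.065) and Mirlet7f-2 (0.02) were above 0. Mirlet7a-1 (-0.09), Mirlet7a-2 (-0.11) and Mirlet7g (-0.10) were below, and these and Mirlet7f-2 were dim in all GFD arrays.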

How the data were processed

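Total RNA of 18 mouse medulloblastomas had been hybridised to Affymetrix mouse Gene ST 1.0 arrays, per the labels' protocols. The deposited values were log2 intensities of 35556 probe sets, 4.219 to 14.32, with array medians of 7.736 to 7.868. The submitters' processing notes name Partek 6.6, and background correction, scaling and probe summary are not given in the sources used here. Of the probe sets, 23410 were in the platform's probe table, 21789 with 1 gene symbol, 1621 with several and 12146 with none there; 21698 matched a RefSeq gene identifier.

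All 18 arrays were fitted in limma 3.58.1 (R 4.3.3, checked on simulated data) with 5 group means and 13 residual degrees of freedom, and moderated two-sided tests were adjusted by Benjamini-Hochberg over 19938 genes. No filter was applied. Plots and counts used Python 3.11.15 and matplotlib 3.10.9. Named genes were the 12 largest called increases and decreases of at least 1 (log2) without overlap (sex-linked, unnamed, receptor and immunoglobulin loci left out), up to 4 members with the largest difference from each of 34 lists (411 measured entries), a fixed set of pathway genes, and the 6 largest gaps to the NG tumours in each direction. The members and lists were chosen with earlier results of these data known. Alternatives were 30 other fits (normalization, filter, probe set rule, samples, weights, spread, covariates, replicate block, each array left out).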

Additional observations from a re-analysis of the deposited data

Results flagged for a closer look

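In the 4 GFD-Smo arrays, 1 array lay apart from the rest, by Dixon's criterion at the 95% level, for 15 of the named genes. Chance flags about 1 in 20 groups of this size. GFD-Smo replicate 2 was the array for Ttr (12.70, others 6.48 to 6.56), Kcnj13 (10.31, others 6.49 to 7.02) and Kl (8.90, others 7.29 to 7.49), which are choroid plexus genes, for the Y-linked Eif2s3y (10.31), Kdm5d (9.35) and Uty (10.50), whose other arrays were at 5.02 to 5.87, and for Aqp4 (12.19, others 12.35 to 12.37). GFD-Smo replicate 4 was the array for Calb1 (6.48, others 10.04 to 10.61), Atoh1 (12.14), Scd1 (11.37) and Mfap4 (10.57). GFD-Smo replicate 3 was the array for Acta2 (9.22), Mcm2 (11.57) and Tecta (7.18), and replicate 1 for H2-Ab1 (6.79, others 6.61 to 6.63).

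The gap between GFD and NG tumours in Smo minus Ptch had an adjusted p under 0.05 in limma for 39 of the 163 named genes (log2 gaps). Over all genes the share was 3.81%. The naming rule took in the 6 largest called gaps in each direction, so part of the 39 was fixed in advance. The count is therefore a description of the named genes only. Positive gaps, with GFD above NG, were those of Mtx2 (4.89), Zdbf2 (4.51), Aldoc (4.39), Scd1 (3.90), Prm1 (3.78), Aqp4 (3.72), Scrg1 (3.57), Gjc3 (3.57), Gabrg1 (3.32), Plpp3 (3.25), Ednrb (3.22), Car2 (3.15), Car8 (3.002), Nefl (2.93), Gja1 (2.78), Aldh1l1 (2.55), Grb10 (2.52), Hhip (2.33), Fgfr2 (2.02), Clic6 (1.97), Id4 (1.94), Gfap (1.88), Gli3 (1.85), Fgfr3 (1.66), Jag1 (1.61), Nrarp (1.28), Wnt5a (1.10) and Etv4 (0.73). Negative gaps were those of H2-Aa (-3.32), Uba1y (-2.98), Tbx15 (-2.97), Wfdc17 (-2.76), Pcdhb2 (-2.40), Crispld1 (-2.18), Cerkl (-2.17), Minar1 (-2.04), Mcm2 (-0.77), Tet3 (-0.75) and Ccnd2 (-0.72). Zdbf2 was uneven within GFD-Ptch, with levels of 6.23 and 8.18.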

How the results depend on the processing

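Of the 89 named genes called, 17 kept their call under all 30 alternatives, 47 lost it under 1 to 3 and 25 under more, and none changed sign (0 of 89). The sign was largely fixed in advance: the groups did not overlap for 3103 of the 3110 called genes, and leaving out arrays cannot reverse such genes. The GFD counts, higher and lower, were 3346 and 3363 with only the 6 GFD arrays, 2832 and 3074 with array weights, and 252 and 81 with GFD-Smo replicate 2 as the only Smo array, an alternative chosen after seeing the data. The lower count was 5423 after median centring, 856 with dim genes left out (10700 tested) and 895 with the replicate number as a block. Leaving out 1 array gave 556 to 2192 higher and 441 to 2184 lower. NG calls were 405 without the GFI-Ptch group, 419 with array weights, 96 with the gender label, 34 with the replicate block and 53 with GFD-Smo replicate 2 alone, and 75 to 384 without 1 array. Calls for the gap were 1204 after median centring, 1293 without the GFI-Ptch group, 1484 with array weights, 188 with the gender label, 159 with the Y-linked level, 417 with the replicate block and 52 with GFD-Smo replicate 2 alone, and 248 to 1285 without 1 array. The causes were not tested, apart from the fewer genes or samples that some of these fits hold.

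Whether replicate numbers pair the GFD samples cannot be told, since the deviations of 2 GFD-Ptch arrays from their mean are mirror images. Same-numbered arrays' deviations correlated at -0.05 and -0.08, and differently numbered ones at 0.05 and 0.08. With the replicate block 1322 genes were called higher, and 65.7% of the GFD calls were kept. With 2 GFD-Ptch arrays, 1 array carries much of each difference, and where Y-linked transcripts set GFD-Smo replicates 1, 3 and 4 apart from GFD-Ptch, sex and model cannot be told apart in them.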

Other observations

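Families grouped by gene symbol after the data were seen give further values, with no test of a family. Over all genes 8.5% were called higher and 7.1% lower. Of 20 glutathione transferases, which conjugate toxic compounds to glutathione, 9 were called higher in GFD-Smo and 0 lower, led by Gstk1 (2.85, adjusted p = 9.37e-05) and Gsto1 (2.32, adjusted p = 3.83e-06). Of 15 connexins 5 were higher and 0 lower, among them Gja1, Gjb6 and Gjc3. Of 24 glutamate receptor genes 5 were higher and 0 lower, led by Gria1 and by Grm3, a metabotropic receptor of astrocytes (3.31, adjusted p = 5.36e-06), and of 16 GABA-A subunits 3 were higher, including Gabrb1 (3.17, adjusted p = 0.000214). Of 89 potassium channel genes 8 were higher (8.99%) and 4 lower (4.49%): Kcnj10, the inward rectifier of astrocytes, differed by 3.24 (adjusted p = 0.000354), and Kcnj6, a neuronal channel opened by G proteins, by -1.81 (adjusted p = 8.16e-05). Of 24 genes whose symbols begin with Cacn, the prefix of voltage-gated calcium channel subunits, 17 were not called. Of the rest 6 were called lower and 1 higher, Cacng4 (1.55, adjusted p = 0.00157), and the function of each member was not checked.

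Of the 50 measured genes nearest Smo by gene order in RefSeq, 25 on each side, 13 were called lower in GFD-Smo and 0 higher (26%), with a median of -0.17, and 0 were called in the NG tumours (median -0.02). Around Ptch1, 2 of 50 were called higher and 3 lower (10%), with a median of -0.05. Over all genes 15.6% were called, 8.5% higher and 7.1% lower. In the NG tumours 1.04% of all genes were called, so a count of 0 among 50 there does not set the GFD tumours apart. These windows were chosen after earlier results were seen.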
